A study of Mus musculus with 6 samples.

Results

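Transcripts of cholesterol synthesis, uptake and export, with those of the SREBP system that controls them, were followed in mouse myoblasts that had switched on a chimeric Dux transcription factor. The set held 33 genes of the 24028 in the count table, taken by symbol from a list of pathway members: 19 synthesis enzymes, 5 genes of SREBP control, 5 of uptake and handling within the cell, and 4 of the LXR receptors and the sterol exporters. All cultures came from 1 clonal line of C2C12, an immortalised mouse myoblast line, labelled MMH6 and kept under puromycin in medium with fetal bovine serum. The line carries MMH, a codon-altered and doxycycline-inducible transgene in which the N-terminus and homeodomains of mouse Dux are fused to the C-terminus of human DUX4. Induced cells (3 cultures) received 2 µg/ml doxycycline, and uninduced cells (3 cultures of the same line) received none. The duration of induction is uncertain, since it is 18 h in the series design but 36 h in the treatment protocol. Effects of doxycycline itself and of the transgene cannot be told apart with these groups, because doxycycline-treated cells lacking MMH were not analysed here. Polyadenylated RNA was sequenced to 21.5 to 24.5 M counts per library.

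Cholesterol is built from acetyl-CoA through mevalonate and the isoprenoid diphosphates to squalene, which is closed into lanosterol and then trimmed to cholesterol. When membranes of the endoplasmic reticulum are short of sterol, the escort protein SCAP carries the SREBP transcription factors to the Golgi, where they are cut free and switch on the genes of synthesis and uptake. INSIG proteins hold SCAP back when sterol is plentiful. Oxysterols, made when sterol accumulates, activate the LXR nuclear receptors, which raise the exporters ABCA1 and ABCG1 and the ubiquitin ligase MYLIP, a destroyer of lipoprotein receptors.

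Most synthesis and SREBP transcripts were lower in induced cells, whereas the LXR genes, Abca1 and Mylip were higher, Nr1h3 and Abca1 on few counts. Of the 33 genes, 32 had enough counts to be tested; 23 fell, 6 rose and 3 were not called (edgeR's quasi-likelihood test, Benjamini-Hochberg adjusted p under 0.05 over all tested genes). Among all 12969 tested genes, 41.2% fell, 41.3% rose and 82.5% were called in either direction, so a call by itself is common in these data. A fall of at least 2-fold was called for 10 of the 32 genes, against 12.7% of all tested genes. The groups did not overlap in CPM (counts set to a common library size, after TMM scaling) for 29 of the 32, against 83.1% of all tested genes. The median log2 fold change was -0.84 over the 32 genes and -0.01 over all tested genes. In these bulk cultures, fewer cells of a kind and less RNA per cell cannot be told apart. No external RNA standard was used here, so "rose" and "fell" are set against the median of all genes tested. When libraries were scaled by size alone, 1977 genes rose and 9949 fell, against 5351 and 5347 under TMM. That median then moved to -0.97. Nr1h2, which encodes an LXR receptor, then stood at -0.54, and Abca1 at 0.44 was no longer called (edgeR adjusted p = 0.155). A change of scaling shifts all genes nearly alike, so distances to the median stay almost the same by construction and are no check of a gene's direction.

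**Figure D1:**
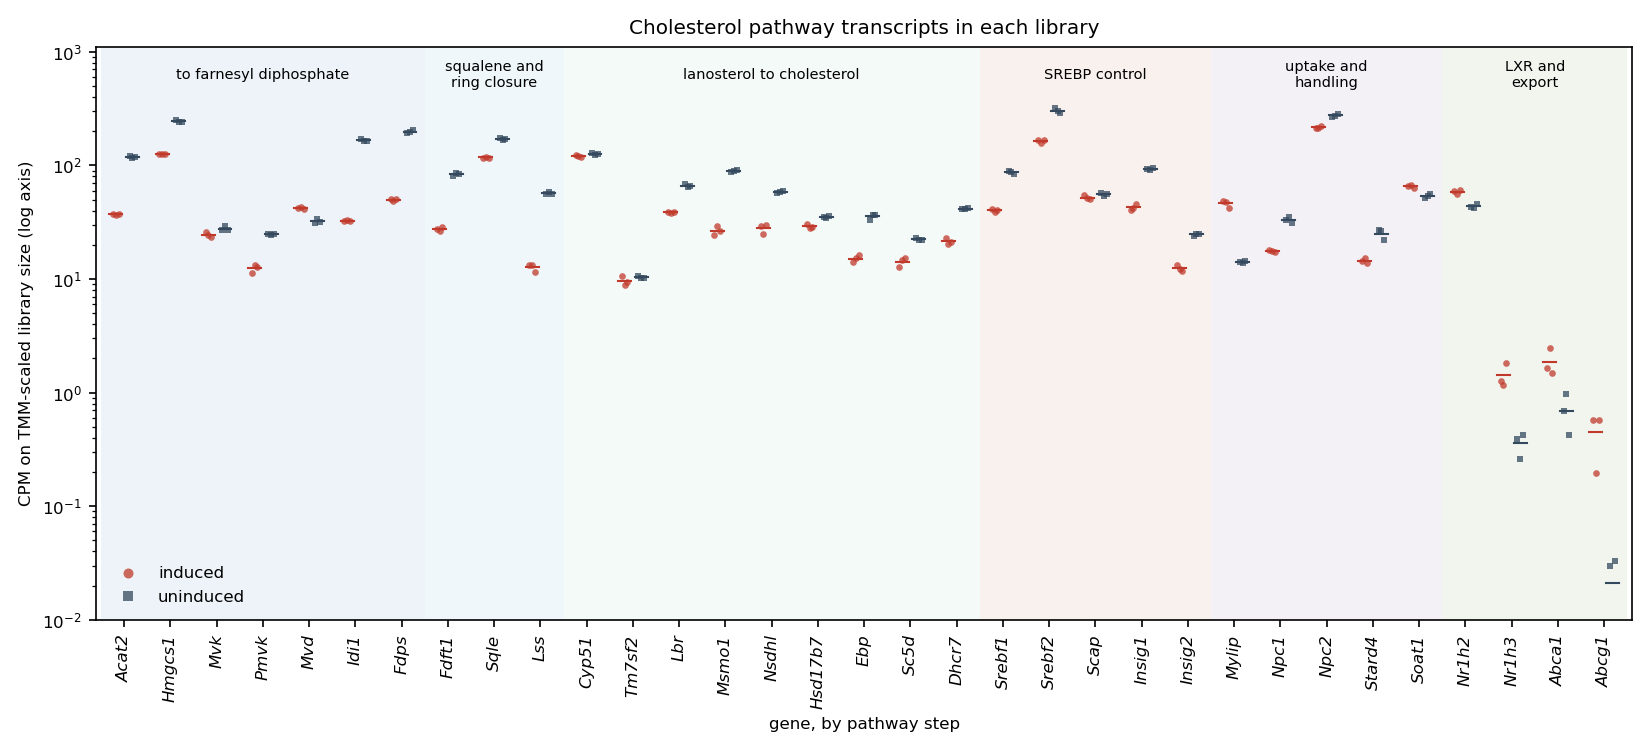
Level of each of the 33 genes in every library, in CPM on a log axis, in pathway order, with induced libraries (circles) left of uninduced libraries (squares) and lines at the group means. Idi1 sits at 32.1 to 32.7 CPM in induced and 163 to 171 CPM in uninduced libraries, Mylip is higher in induced cells, and the uninduced library with no Abcg1 count is not drawn.

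Together the 19 synthesis enzymes held 785 ± 5.15 CPM in induced cells and 1604 ± 10.6 CPM in uninduced cells (SD, n = 3 each). As a share of all counts, they took 0.0562% ± 0.000493 in induced and 0.224% ± 0.000848 in uninduced cells (SD, n = 3 each). Such a share amounts to scaling by library size alone, under which the median log2 fold change of all tested genes was -0.97. The larger difference between these shares therefore includes a shift that most genes had in common. Of the 19, 16 fell, 1 rose and 2 were not called, with a median log2 fold change of -0.95. Among all tested genes 41.2% fell and 41.3% rose, and these shares also stand beside the counts given below for each pathway step. The fall was uneven along the pathway, and log2 fold changes ran from -2.36 for Idi1 to 0.39 for Mvd. Among the 30 genes of the whole set above 10 CPM in uninduced cells, replicates of a group had a coefficient of variation of 0.85 to 11.1%.

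The promoters of 6 genes are shown to cover each kind of response: the enzymes with the largest falls, Idi1 and Lss, the partly lowered Hmgcs1, the uncalled Cyp51, the raised enzyme Mvd, and Mylip, a raised gene outside synthesis. Each sequence runs from 250 bases before to 50 bases after the start site that defines the RefSeq promoter window, on the strand of the gene, on GRCm38.p6. For Lss that site lies downstream of the first base of the RefSeq gene. Capitals mark TCANNCCAC, a pattern of the sterol regulatory element bound by SREBP, and CCAAT, the box bound by NF-Y, a common partner of SREBP, each on either strand. No TCANNCCAC match overlapped a CCAAT match in these windows.
Idi1, chr13:8885356-8885655, plus strand: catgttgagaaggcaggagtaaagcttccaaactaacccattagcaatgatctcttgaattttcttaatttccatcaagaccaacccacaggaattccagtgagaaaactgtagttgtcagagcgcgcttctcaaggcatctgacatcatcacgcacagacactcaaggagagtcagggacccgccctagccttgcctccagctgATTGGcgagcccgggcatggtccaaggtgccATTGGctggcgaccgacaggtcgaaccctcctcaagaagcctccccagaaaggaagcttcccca
Lss, chr10:76531355-76531654, plus strand: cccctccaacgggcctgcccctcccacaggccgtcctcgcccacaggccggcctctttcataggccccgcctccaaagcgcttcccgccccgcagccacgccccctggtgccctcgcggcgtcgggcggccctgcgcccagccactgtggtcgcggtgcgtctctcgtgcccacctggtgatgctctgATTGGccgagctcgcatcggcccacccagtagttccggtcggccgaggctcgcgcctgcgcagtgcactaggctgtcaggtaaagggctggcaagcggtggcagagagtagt
Hmgcs1, chr13:119690101-119690400, plus strand: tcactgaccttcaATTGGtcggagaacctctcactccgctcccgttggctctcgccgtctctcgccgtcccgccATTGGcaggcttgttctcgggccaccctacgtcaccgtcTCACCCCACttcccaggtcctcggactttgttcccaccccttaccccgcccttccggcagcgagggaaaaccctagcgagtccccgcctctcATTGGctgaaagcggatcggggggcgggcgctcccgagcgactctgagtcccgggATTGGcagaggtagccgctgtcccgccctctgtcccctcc
Cyp51, chr5:4104648-4104947, minus strand: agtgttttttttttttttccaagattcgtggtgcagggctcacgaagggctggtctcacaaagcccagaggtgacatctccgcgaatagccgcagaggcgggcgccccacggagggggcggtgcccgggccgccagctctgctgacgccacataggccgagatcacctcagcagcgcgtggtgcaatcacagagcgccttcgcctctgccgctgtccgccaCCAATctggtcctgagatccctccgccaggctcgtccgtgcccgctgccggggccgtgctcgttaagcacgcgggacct
Mvd, chr8:122443373-122443672, minus strand: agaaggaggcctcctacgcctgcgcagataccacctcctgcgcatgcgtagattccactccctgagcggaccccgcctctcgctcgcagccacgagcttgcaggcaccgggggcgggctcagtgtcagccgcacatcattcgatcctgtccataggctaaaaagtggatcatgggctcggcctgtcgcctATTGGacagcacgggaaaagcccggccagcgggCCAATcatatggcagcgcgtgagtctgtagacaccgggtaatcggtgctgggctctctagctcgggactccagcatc
Mylip, chr13:45389492-45389791, plus strand: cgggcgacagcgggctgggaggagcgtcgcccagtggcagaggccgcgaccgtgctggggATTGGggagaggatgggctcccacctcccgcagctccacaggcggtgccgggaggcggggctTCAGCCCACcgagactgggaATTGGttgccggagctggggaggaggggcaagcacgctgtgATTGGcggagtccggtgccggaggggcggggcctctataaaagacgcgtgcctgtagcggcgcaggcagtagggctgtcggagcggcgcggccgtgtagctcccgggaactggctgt

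The sterol pattern was found in Hmgcs1, as TCACCCCAC with its first base at position -137 from the start site, and in Mylip, as TCAGCCCAC at position -128. RefSeq promoters were matched for 27 of the 33 genes, with 36 windows in all. The sterol pattern stood in 2 of these 36 windows (5.56%) and in 4.18% of all 32851 promoter windows. CCAAT stood in 63.9% of the 36 windows and in 37.4% of all windows. The GC box GGGCGG, bound by Sp1, stood in 77.8% of the 36 windows and in 35.7% of all windows, also on either strand. The windows were not matched for expression, and some of the 27 genes hold several of the 36, so these shares are not shown to be particular to sterol genes. Each of the 6 promoters shown holds CCAAT and GGGCGG, whichever way its transcript moved. These matches describe letters in short windows and are no measure of binding. TCANNCCAC was the only sterol pattern searched, so sterol elements with other letters would be missed, and a window without a match may still hold one.

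The steps from acetyl-CoA to farnesyl diphosphate had 6 of 7 transcripts lower and 1 higher. Acat2, the cytosolic thiolase that starts the route, had 37.6, 36.3 and 37.3 CPM in induced cultures, against 120, 115 and 118 CPM in uninduced cultures. Every induced value lay below every uninduced value (log2 fold change -1.67 ± 0.05, SE, edgeR adjusted p = 8.0e-20). Its near copy Acat3, with which it may share reads, was at -1.61 ± 0.08 (SE), so the direction was the same for both. Hmgcs1, which makes HMG-CoA, had 127, 127 and 125 CPM in induced and 250, 242 and 238 CPM in uninduced cultures. The groups did not overlap (log2 fold change -0.95 ± 0.04, SE), and an antisense gene that is no row of the table covers 16.0% of its exons. Between the middle kinases the falls differed. Mevalonate kinase, Mvk, had 25.8, 24.5 and 23.5 CPM in induced cultures, just under the 27.2, 29.1 and 27.0 CPM of uninduced cultures (log2 fold change -0.17 ± 0.07, SE, edgeR adjusted p = 0.0183). That small call was lost with DESeq2 (adjusted p = 0.059), without uninduced replicate 2 (edgeR adjusted p = 0.0938) and without induced replicate 3 (edgeR adjusted p = 0.0977). Phosphomevalonate kinase, Pmvk, was at 11.2, 13.2 and 12.9 CPM in induced and 24.96, 24.3 and 25.1 CPM in uninduced cultures. Its induced mean was 50.2% of its uninduced mean, with no overlap.

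The next enzyme, the decarboxylase Mvd, was the synthesis gene that rose. It had 41.9, 42.7 and 41.6 CPM in induced cultures, each above the 31.1, 33.5 and 31.6 CPM of uninduced cultures (log2 fold change 0.39 ± 0.06, SE, edgeR adjusted p = 1.0e-06), but it stood at -0.57 when libraries were scaled by size alone. Directly after it comes the largest fall. Idi1, the isomerase that makes the reactive isoprene unit (chromosome 13, 8885606 to 8892396), had 32.1, 32.7 and 32.1 CPM in induced cultures and 171, 163 and 164 CPM in uninduced cultures. Induced cells held 19.5% of the uninduced mean, and 1.16% of tested genes ranked as low or lower. An antisense gene that is no row of the table covers 10.7% of the Idi1 exons, and the near copy Idi2 held 0.588 ± 0.277 CPM in induced and 0.0526 ± 0.0178 CPM in uninduced cells (SD, n = 3 each). Fdps, which condenses the units into farnesyl diphosphate, had 51.0, 48.3 and 50.6 CPM in induced and 194, 196 and 204 CPM in uninduced cultures, with no overlap (log2 fold change -1.99 ± 0.05, SE, edgeR adjusted p = 8.3e-22). A second gene model on the same strand, Gm43738, which is no row of the table, shares 77.4% of the Fdps exons. Per kilobase of annotated exon, Fdps had the highest level of the 33 genes in uninduced cells, at 136 ± 3.44 CPM per kb, and had rank 4 in induced cells, at 34.4 ± 1.00 CPM per kb (SD, n = 3 each).

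**Figure D2:**
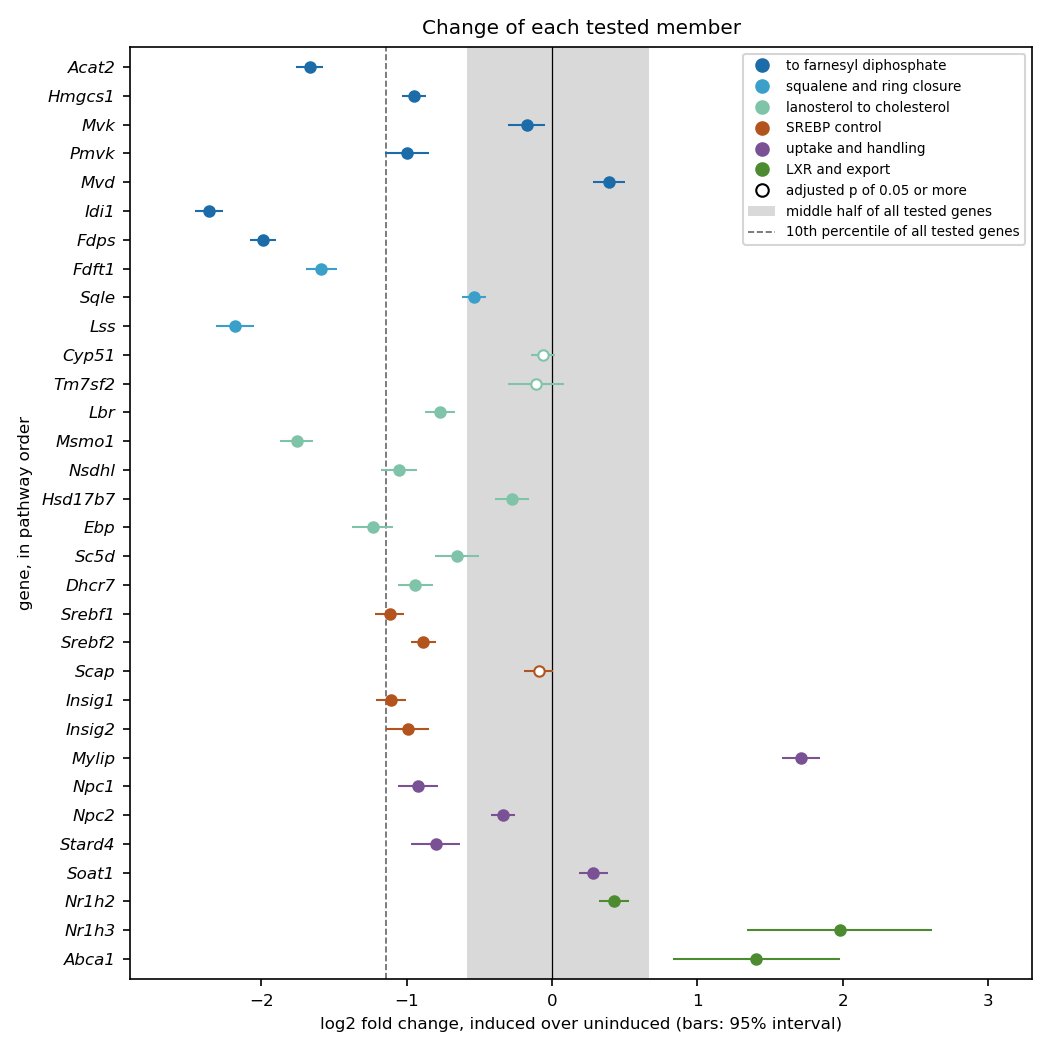
Log2 fold change of the 32 tested genes, induced over uninduced, with 95% intervals (1.96 SE), coloured by pathway step, open where the adjusted p was 0.05 or more. The grey band spans the 25th to 75th percentile of all tested genes (-0.59 to 0.67) and the dashed line their 10th percentile (-1.14); 7 of the 32 genes lie below it.

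All 3 transcripts of squalene synthesis and ring closure fell, by unequal amounts. Fdft1, squalene synthase, the first enzyme committed to sterols, had 27.7, 26.7 and 28.8 CPM in induced cultures and 79.9, 86.1 and 83.8 CPM in uninduced cultures (log2 fold change -1.59 ± 0.06, SE). Exons of Ctsb on the opposite strand cover 20.9% of the Fdft1 exons, and Ctsb was at -0.31 ± 0.04 (SE). Sqle, squalene epoxidase, a tightly controlled step, fell less, with 116, 118 and 117 CPM in induced and 175, 167 and 169 CPM in uninduced cultures (log2 fold change -0.54 ± 0.04, SE, edgeR adjusted p = 1.9e-11). Lss, lanosterol synthase (chromosome 10, 76531565 to 76557139), was the second largest fall of the set. It had 13.3, 13.1 and 11.4 CPM in induced cultures and 56.5, 58.5 and 56.4 CPM in uninduced cultures, and the groups did not overlap (log2 fold change -2.18 ± 0.07, SE, edgeR adjusted p = 2.6e-19). Sqle therefore kept 69.0% of its uninduced mean, beside 33.3% for Fdft1 before it and 22.1% for Lss after it.

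From lanosterol to cholesterol, 7 of 9 transcripts fell and 2 were not called, with a median log2 fold change of -0.77. Cyp51, the lanosterol demethylase and the first enzyme of this stretch, had 124, 120 and 117 CPM in induced cultures, overlapping the 129, 123 and 125 CPM of uninduced cultures. Its log2 fold change was -0.06, with a 95% interval of -0.15 to 0.02 (edgeR adjusted p = 0.173). It was called lower with upper-quartile scaling (-0.21, edgeR adjusted p = 6.3e-05) and without the low-count filter (-0.14, edgeR adjusted p = 0.00596). With library size alone it was also called lower (-1.03, edgeR adjusted p = 3.8e-17), where the median of all tested genes was -0.97. The next reduction has a pair of enzymes, Tm7sf2 and the lamin B receptor Lbr, which also tethers heterochromatin to the nuclear envelope. Tm7sf2 had 10.6, 8.80 and 9.36 CPM in induced and 10.7, 10.2 and 10.1 CPM in uninduced cultures, which overlapped (log2 fold change -0.11, 95% interval -0.30 to 0.08, edgeR adjusted p = 0.303). It was called lower with upper-quartile scaling (-0.25, edgeR adjusted p = 0.0191) and with library size alone (-1.07, edgeR adjusted p = 1.7e-10). Lbr had 38.9, 37.7 and 39.1 CPM in induced and 68.0, 63.9 and 65.5 CPM in uninduced cultures, a log2 fold change of -0.77 ± 0.05 (SE). Per kilobase of exon, the level of Lbr was 1.95 ± 0.159 times that of Tm7sf2 in induced cells and 3.07 ± 0.0507 times in uninduced cells (SD, n = 3 each), and the ranges of these ratios did not overlap.

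The demethylation enzymes that follow fell in different degrees. Msmo1, the methylsterol oxidase, had 24.4, 29.1 and 26.2 CPM in induced and 88.1, 89.4 and 90.8 CPM in uninduced cultures, well apart (log2 fold change -1.75 ± 0.06, SE, edgeR adjusted p = 1.0e-18). Nsdhl, the decarboxylating dehydrogenase on the X chromosome, had 29.3, 24.7 and 29.9 CPM in induced and 57.2, 57.8 and 59.8 CPM in uninduced cultures (log2 fold change -1.05 ± 0.06, SE). Hsd17b7, the ketoreductase, fell little, to 30.4, 28.0 and 28.5 CPM in induced cultures against 35.4, 34.4 and 35.5 CPM in uninduced cultures (log2 fold change -0.28 ± 0.06, SE, edgeR adjusted p = 0.000188). The last steps all fell. Ebp, the sterol isomerase, also X-linked, had 14.1, 15.1 and 16.2 CPM in induced and 33.3, 36.6 and 36.8 CPM in uninduced cultures (log2 fold change -1.23 ± 0.07, SE). Sc5d, the desaturase, had 12.7, 14.6 and 15.3 CPM in induced and 22.8, 21.9 and 22.2 CPM in uninduced cultures (log2 fold change -0.65 ± 0.08, SE). Dhcr7, which makes cholesterol from its last precursor on one branch, had 23.1, 20.4 and 21.3 CPM in induced and 41.0, 41.4 and 41.96 CPM in uninduced cultures (log2 fold change -0.94 ± 0.06, SE). Each had its 3 induced values below its 3 uninduced values.

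Within SREBP control, 4 of 5 transcripts fell and 1 was not called, with a median log2 fold change of -0.99. Srebf2, the SREBP most tied to cholesterol genes (chromosome 15, 82147269 to 82205379), had 167, 158 and 165 CPM in induced and 319, 301 and 286 CPM in uninduced cultures (log2 fold change -0.88 ± 0.04, SE, edgeR adjusted p = 5.6e-15). Srebf1, whose forms drive both cholesterol and fatty acid genes, had 41.2, 39.2 and 40.3 CPM in induced and 89.97, 87.9 and 83.8 CPM in uninduced cultures (log2 fold change -1.11 ± 0.05, SE). Counts per gene do not separate its isoforms, and exons of Rai1 on the opposite strand cover 2.54% of its exons, with Rai1 itself at -1.46 ± 0.08 (SE). Per kilobase of exon, the Srebf2 level was 3.44 ± 0.0274 times that of Srebf1 in induced and 2.93 ± 0.0634 times in uninduced cells (SD, n = 3 each).

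The escort Scap was not called, while both of its retention partners fell. Scap had 54.3, 51.1 and 50.6 CPM in induced cultures, overlapping the 56.6, 54.1 and 55.5 CPM of uninduced cultures (log2 fold change -0.09, 95% interval -0.19 to 0.01, edgeR adjusted p = 0.107). It was called lower with upper-quartile scaling (-0.24, edgeR adjusted p = 0.000143) and without the low-count filter (-0.16, edgeR adjusted p = 0.00567). With library size alone it was also called lower (-1.05, edgeR adjusted p = 8.1e-16), where the median of all tested genes was -0.97. A gene model on the opposite strand that is no row of the table covers 18.6% of the Scap exons. Insig1, itself a target of SREBP, had 40.5, 42.4 and 46.1 CPM in induced and 92.7, 90.1 and 94.6 CPM in uninduced cultures, with no overlap (log2 fold change -1.10 ± 0.05, SE, edgeR adjusted p = 1.6e-15). Insig2, which shares its function, was at 13.2, 12.2 and 11.8 CPM in induced and 24.1, 24.9 and 25.1 CPM in uninduced cultures, a log2 fold change of -0.99 ± 0.08 (SE). Per kilobase, Insig1 stood 3.81 ± 0.449 times above Insig2 in induced cells and 4.10 ± 0.133 times above it in uninduced cells (SD, n = 3 each), with overlapping ranges.

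Genes of uptake and handling went both ways, with 3 of 5 lower and 2 higher. Mylip, the ubiquitin ligase that marks lipoprotein receptors for destruction (chromosome 13, 45389742 to 45411940), had 49.0, 47.3 and 42.5 CPM in induced cultures, against 14.0, 13.8 and 14.5 CPM in uninduced cultures. Induced cells held 3.28 times the uninduced mean (log2 fold change 1.71 ± 0.07, SE, edgeR adjusted p = 3.5e-17), and its log2 fold change was 0.75 when libraries were scaled by size alone. Soat1, which esterifies cholesterol for storage, had 65.7, 67.8 and 63.3 CPM in induced and 51.8, 53.7 and 56.1 CPM in uninduced cultures (log2 fold change 0.28 ± 0.05, SE), but was at -0.68 with library size alone. The other three were lower. Npc1, the lysosomal membrane protein that releases cholesterol taken up by the cell, had 17.95, 17.5 and 17.1 CPM in induced and 33.2, 35.4 and 30.8 CPM in uninduced cultures (log2 fold change -0.92 ± 0.07, SE). Its soluble partner Npc2 fell less, to 214, 215 and 224 CPM in induced cultures against 268, 272 and 286 CPM in uninduced cultures (log2 fold change -0.34 ± 0.04, SE). Per kilobase of exon, the level of Npc2 was 19.7 ± 0.939 times that of Npc1 in induced and 13.2 ± 1.31 times in uninduced cells (SD, n = 3 each). Stard4, a sterol carrier of the cytosol, had 14.4, 15.1 and 13.8 CPM in induced and 27.1, 26.3 and 21.9 CPM in uninduced cultures (log2 fold change -0.80 ± 0.08, SE). None of these 5 genes had overlapping groups, and the groups of 83.1% of all tested genes did not overlap either.

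The LXR genes and the exporters all had higher values in induced cells, but only Nr1h2 was abundant. Nr1h2 encodes LXR beta, the widely expressed receptor, and had 59.6, 56.1 and 60.2 CPM in induced and 43.1, 42.4 and 45.6 CPM in uninduced cultures (log2 fold change 0.43 ± 0.05, SE, edgeR adjusted p = 8.8e-08), with -0.54 under library size alone. Nr1h3 encodes LXR alpha, the receptor of liver, fat and macrophages, and had 22, 18 and 32 counts in induced and 13, 8 and 13 counts in uninduced libraries. After scaling these were 1.25, 1.16 and 1.84 CPM in induced and 0.389, 0.259 and 0.426 CPM in uninduced cultures, which did not overlap (log2 fold change 1.98 ± 0.32, SE, edgeR adjusted p = 5.9e-06). Abca1, the exporter of cholesterol to lipid-poor apolipoprotein, had 29, 38 and 26 counts in induced and 23, 30 and 13 counts in uninduced libraries. The corresponding levels were 1.65, 2.46 and 1.49 CPM in induced and 0.688, 0.971 and 0.426 CPM in uninduced cultures, and these do not overlap although the raw counts do (log2 fold change 1.40 ± 0.29, SE, edgeR adjusted p = 0.000125). With library size alone Abca1 was at 0.44 (edgeR adjusted p = 0.155), so that call rests on the scaling. Abcg1, the exporter to mature lipoprotein particles, was too low to be tested, with 10, 3 and 10 counts in induced and 1, 0 and 1 counts in uninduced libraries. Its ratio of summed scaled counts was 21.6, with an exact 95% binomial counting interval of 5.34 to 189, which covers counting error only.

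Other genes of the same pathways were read from lists chosen beside these members, and a gene silent in uninduced cells could be tested only through its induced counts. The counts of these lists stand beside the 41.2% of all tested genes that fell and the 41.3% that rose. Of the 14 tested targets of SREBP in fatty acid synthesis, 12 fell and 2 were not called, with a median log2 fold change of -0.54. Fads1, a desaturase of polyunsaturated fatty acids, averaged 35.4 ± 1.80 CPM in induced and 118 ± 2.00 CPM in uninduced cells, and Scd1, the stearoyl-CoA desaturase, 79.0 ± 3.91 CPM in induced and 256 ± 6.39 CPM in uninduced cells (SD, n = 3 each). Partners of sterol synthesis split, with 5 of 10 lower and 3 higher and a median of -0.22. Tmem97, a sterol-responsive membrane protein, fell by 1.61 on the log2 scale, whereas Por, the electron donor of Cyp51 and Sqle, rose by 0.82 ± 0.05 and the adrenodoxin reductase gene Fdxr by 0.76 ± 0.09 (SE), although scaling by size alone put them at -0.15 and -0.20. Non-sterol isoprenoid branches had 5 of 15 lower and 5 higher, with a median of -0.02. Nus1, a subunit of the enzyme that builds dolichol precursors, rose by 1.10 ± 0.04 and Ggps1, which makes geranylgeranyl diphosphate, by 0.47 ± 0.07 (SE). Under size alone Nus1 was at 0.14 and Ggps1 at -0.49. Coq2, of ubiquinone synthesis, was at -1.34 ± 0.10 and the farnesyltransferase subunit Fntb at -1.24 ± 0.09 (SE).

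**Figure D3:**
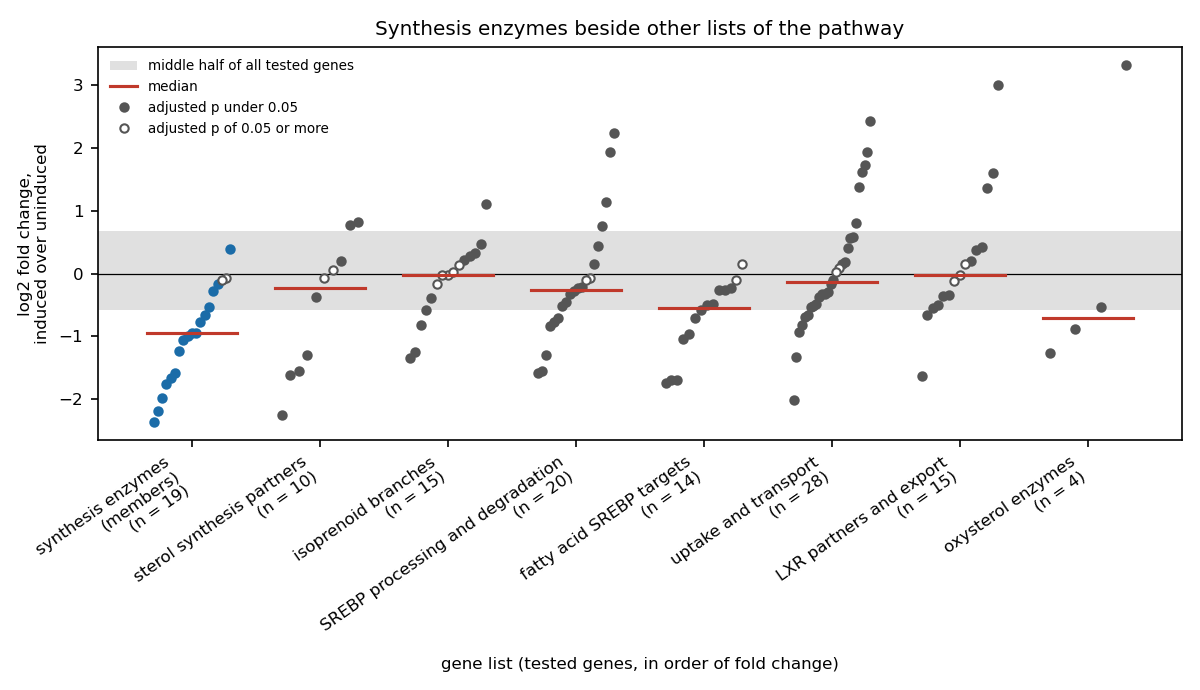
Log2 fold change, induced over uninduced, of every tested gene of the synthesis enzymes (blue) and of 7 lists of further genes, each in order of size, with red lines at the medians and open points where the adjusted p was 0.05 or more. The synthesis enzymes have a median of -0.95, the fatty acid targets of SREBP -0.54 and the isoprenoid branches -0.02.

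The list of factors that process, retain or degrade SREBP also held NF-Y subunits and Sp1. Its genes moved in both directions, with 12 of 20 lower, 6 higher and a median of -0.26. Mbtps2, the protease that makes the second cut in SREBP, averaged 6.27 ± 0.734 CPM in induced and 18.3 ± 0.862 CPM in uninduced cells (SD, n = 3 each), and Erlin2, a membrane protein that restrains SREBP activation, was at -1.58 ± 0.07 on the log2 scale (SE). Fbxw7, the ligase subunit that marks active nuclear SREBP for destruction, averaged 74.5 ± 2.90 CPM in induced and 19.4 ± 1.04 CPM in uninduced cells (SD, n = 3 each), and rose by 1.94 ± 0.06 on the log2 scale (SE, edgeR adjusted p = 1.4e-19). Paqr3, a Golgi tether of SCAP, averaged 10.8 ± 1.17 CPM in induced and 2.29 ± 0.511 CPM in uninduced cells (SD, n = 3 each), a log2 fold change of 2.23 ± 0.14 (SE).

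Uptake and transport genes outside the set had 15 of 28 lower and 11 higher, with a median of -0.14. Cav1, the caveolar coat protein, was at -2.00 ± 0.06 and Nceh1, a cholesteryl ester hydrolase, at -1.33 ± 0.09, while Lipe, a lipase that also cleaves cholesteryl esters, rose by 2.42 ± 0.11 and the lipid transfer protein gene Stard5 by 1.93 ± 0.07 (SE). Partners and further targets of LXR had 6 of 15 lower and 6 higher and a median of -0.02, shares close to the 41.2% lower and 41.3% higher of all tested genes. The LXR target Arl4c was at -1.63 ± 0.05 (SE). The coregulator Nrip1 rose by 2.99 ± 0.10 and the retinoid X receptor Rxrg, an LXR partner, by 1.60 ± 0.12 (SE). Of 8 oxysterol and bile acid enzymes 4 were tested, with 1 higher and 3 lower. The one that rose was Ch25h, which makes an oxysterol that both retains SCAP and activates LXR. Ch25h averaged 15.5 ± 1.63 CPM in induced and 1.55 ± 0.0482 CPM in uninduced cells (SD, n = 3 each), a rise of 3.32 ± 0.13 on the log2 scale (SE, edgeR adjusted p = 2.7e-17). Hsd3b7, a bile acid enzyme, was at -0.89 ± 0.16 and Cyp39a1, an oxysterol hydroxylase, at -0.53 ± 0.16 (SE).

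**Figure D4:**
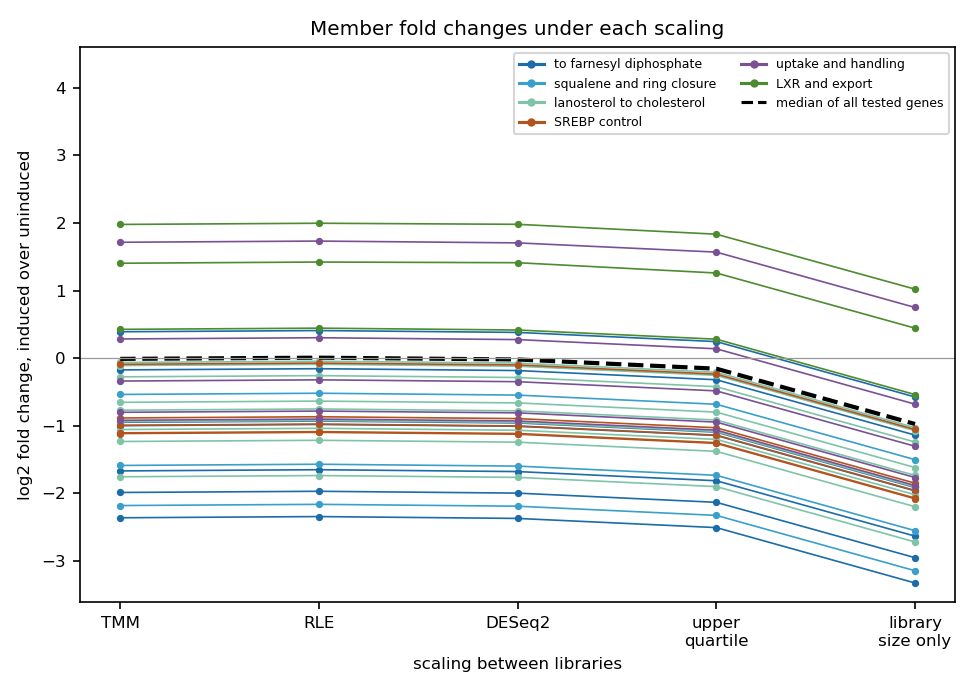
Log2 fold change, induced over uninduced, of the 32 tested genes under 5 ways of scaling the libraries, 1 line per gene coloured by pathway step, with the median of all tested genes dashed. Scaled by size alone, all lines fall together with that median, which moves to -0.97, and 3 genes above 0 under TMM pass below it.

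Markers of cell types were checked because hepatocytes, adipocytes and macrophages handle much cholesterol. Of 5 tested myoblast markers 4 fell, beside 41.2% of all tested genes. The 6 listed summed to 1100 to 1134 CPM in induced and 1795 to 1812 CPM in uninduced cultures. Myod1, the myogenic master regulator, fell to 37.1 ± 0.896 CPM in induced cells, against 178 ± 4.08 CPM in uninduced cells (SD, n = 3 each), a log2 fold change of -2.26. The muscle cadherin Cdh15 fell to 45.6 ± 4.13 CPM in induced cells, against 220.5 ± 6.91 CPM in uninduced cells (SD, n = 3 each), a log2 fold change of -2.28. These falls are of the size of those of Idi1 and Lss. Myf5 was at -1.23 and Des, which makes up most of the sum, at -0.60, while Chrna1 was not called at -0.03. The 6 hepatocyte markers summed to at most 1.29 CPM in induced and 0.0898 CPM in uninduced cultures, with Ttr at 0 in every library. The 6 macrophage markers summed to 7.17 to 8.15 CPM in induced and 4.64 to 6.53 CPM in uninduced cultures, nearly all from Cd14 and Cd68. Of the 2 tested, 1 rose, beside 41.3% of all tested genes. The 6 adipocyte markers summed to 13.9 to 14.6 CPM in induced and 8.31 to 10.3 CPM in uninduced cultures, with Lep at 0 in every library. Of these, Fabp4 rose to 7.06 ± 0.791 CPM in induced cells, against 0.466 ± 0.103 CPM in uninduced cells, and Pparg fell to 6.89 ± 0.357 CPM in induced cells, against 8.74 ± 1.07 CPM in uninduced cells (SD, n = 3 each). Epithelial and steroidogenic markers stayed at or below 3.49 CPM in sum in every culture. The part of these marker differences in the sterol transcripts was not tested.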

How the data were processed

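Polyadenylated RNA from 3 induced and 3 uninduced cultures was prepared with the TruSeq RNA v2 kit and pooled for sequencing, per the labels' protocols; that kit does not mark strand. Reads were processed with CASAVA, TopHat2 2.0.12 and Bowtie2 2.2.3 against mm10 (GRCm38), as named in the submitters' processing notes. Raw counts for 24028 Entrez genes were deposited by the authors. The read counter, annotation and treatment of multiply mapped reads were not given in the sources used here, so overlapping genes and close copies may share reads. Beside the overlaps given above, opposite-strand exons of 4930483K19Rik cover 8.16% of the Lss exons. Those of Akap9 cover 4.22% of the Cyp51 exons, and those of Rmc1 3.68% of the Npc1 exons.

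The deposited counts went unchanged into edgeR 4.0.16 (R 4.3.3). Genes passed filterByExpr at its defaults (12969 kept), and libraries were scaled by TMM (mean factor 0.716 for induced and 1.40 for uninduced libraries). A two-sided quasi-likelihood test (glmQLFit, robust=TRUE, then glmQLFTest) had the group as its single term. P-values were adjusted by Benjamini-Hochberg across every tested gene and called under 0.05. Groups came from the titles. The SE was computed as the absolute log2 fold change over the root of F. In 1 library, 3 counts correspond to 0.171 to 0.194 CPM in induced and 0.0898 to 0.0983 CPM in uninduced libraries. The procedure was tested on simulated counts in which few genes changed. That test does not address scaling when most genes are called, as here. P-values measure the spread between separate cultures of 1 clone. Exon lengths came from the GENCODE vM21 basic set and positions from RefSeq GRCm38.p6, both the build of the files. The members and the lists were chosen with earlier results of these data known. From each list of further genes, the 2 largest rises and 2 largest falls were named among called genes with a mean of 1 CPM or more whose groups did not overlap; 2 genes so selected are not reported here. The alternatives were DESeq2 1.42.0, voom in limma 3.58.1, scaling by RLE, by the upper quartile or by library size alone, removal of the 200 genes with most induced counts, other filters and thresholds, robust=FALSE, a replicate block and each library left out. Cell type markers for myoblasts, adipocytes, macrophages, hepatocytes, steroidogenic and epithelial cells were read as levels.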

Additional observations from a re-analysis of the deposited data

How the results depend on the processing

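Across the 10 alternatives of scaling, tool, filter and block and the 6 single libraries left out, the number of members called lower ran from 22 to 29 and that of synthesis enzymes called lower from 15 to 19, against 23 and 16 as reported. With libraries scaled by size alone, 2 members were called higher, against 6 as reported, and Mvd (-0.57), Soat1 (-0.68) and Nr1h2 (-0.54) changed sign; over all genes 1977 were then higher and 9949 lower, against 5351 and 5347 as reported. Requiring at least 2-fold left 3981 genes, 10 members lower, 3 members higher and 8 synthesis enzymes lower. Leaving out single libraries gave 10362 to 10691 called genes against 10698, 22 to 23 members lower, 15 to 16 synthesis enzymes lower and 6 higher in each case. Abcg1 was called higher with DESeq2 and without the low-count filter, where it was tested. The replicate numbers pair nothing stated in the labels, and deviations of same-numbered libraries from their group means correlated at 0.0166 to 0.0604 across genes. With the replicate block 10813 genes, 23 members lower and 6 higher were called. Among uninduced libraries, each induced library correlated best with that of its own number, and the reverse was not checked. Depth limits Nr1h3, Abca1 and Abcg1, whose libraries held 38 counts or fewer.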
